A study of Homo sapiens with 8 samples.

Results

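The genes described here make the proteins of the cytosolic ribosome and the factors that run translation on it. They were chosen by symbol: GENCODE protein-coding genes whose names start with RPL, RPS, EIF or EEF and a digit, plus RPSA, RPLP0, RPLP1 and RPLP2, without the RPS6K kinases. This gave 162 of 20046 genes, 91 ribosomal protein genes and 71 EIF and EEF genes. The symbol rule also takes in 8 ribosomal protein paralogs, 5 readthrough genes and regulators such as the eIF2α kinases and the eIF4E-binding proteins. IGF2BP1 is an RNA-binding protein that is known for stabilising its target mRNAs, and its binding was measured by eCLIP, in which RNA crosslinked to an immunoprecipitated protein is sequenced beside a size-matched input (SMInput). All libraries were from H1299, a human non-small cell lung carcinoma line. Cells received 1.5 µM AVJ16, an IGF2BP1 inhibitor, or 0.01% DMSO for 24 h before UV crosslinking at 254 nm with 400 mJ/cm2. Each treatment had 2 IP and 2 SMInput libraries, 8 in all, made in 2 batches from a thaw of cells common to all samples, with 2 plates for each condition. The labels do not say which library was in which batch, nor whether replicates were separate cultures.

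The authors deposited 1 peak list per treatment, in which both replicates are combined. The DMSO list holds 22311 peaks and the AVJ16 list 22123. Each peak has a log2 fold enrichment of IP over SMInput of at least 3.00, which is 8-fold, and a −log10 p that stops at 400. No value per replicate and no read count is given, so the depth is unknown here, no difference between treatments could be tested, and no value below has an error across replicates. Intervals are 95% Wilson intervals of shares, which cover counting error only. A site under the threshold is missing from a list whatever its level, and RNA abundance was not part of the lists.

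Ribosomal protein mRNAs are short and very abundant, and begin with a pyrimidine tract through which growth signals set their translation. Translation itself runs in steps: eIF1, eIF2 and eIF3 prepare the small subunit, the eIF4 factors bring it to the capped mRNA, eIF5 and its relatives join the subunits, and the eEF factors carry out elongation. The introns of many ribosomal protein genes also hold small nucleolar RNAs (snoRNAs), which guide chemical modification of ribosomal RNA after they are cut out of the intron.

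The sites below are from 4 ribosomal protein genes and 4 EIF and EEF genes. Each is a stretch around the centre of the gene's most enriched peak, read from GRCh38 on the gene's strand. For EEF2 and EIF3L the peak is shorter than the stretch, so bases outside the peak are shown too. The sites are shown because the results turn on these peaks. RPL30 and EIF3E, with best log2 fold enrichments of 5.51 and 5.08, are not shown, although each exceeds some genes shown of its class. Capitals mark any of 4 short sequences, which are CAUU, its longer form UCAUUC, then GGAC, and last UCCAG. Among the 8 sites shown, those of RPL23A and EIF2AK1 hold such a sequence, and UCAUUC and UCCAG overlap in that of RPL23A. The EIF3L site is in the coding sequence (CDS) and the others are in the 3’UTR. They lie at chr5:82274905-82274934 (RPS23, minus strand), chrX:119786547-119786576 (RPL39, minus), chr3:23920709-23920738 (RPL15, plus), chr17:28724050-28724079 (RPL23A, plus), chr19:3976365-3976394 (EEF2, minus), chr7:6024279-6024302 (EIF2AK1, minus), chr22:37851371-37851400 (EIF3L, plus) and chr12:53041176-53041205 (EIF4B, plus).
RPS23: acuaugguuccuugcaugucgccugcucuu
RPL39: uccucucugaaucuguuaugaacacguugg
RPL15: ggaaguacucauagcaaguucauaaaaguu
RPL23A: gccacuccaccauguaugaUCAUUCCAGag
EEF2: ugaugccguuucuuucaauauuuauuucca
EIF2AK1: UCCAGuuuugacagcugccagucu
EIF3L: uuuccacaaaacugucucagauuugauuga
EIF4B: ucuaagucacauacaugaugucuugggcau

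Both classes were bound, and a larger share of the EIF and EEF genes than of the ribosomal protein genes held a peak. With DMSO, 30 of 71 EIF and EEF genes (42.3%, interval 31.5 to 53.8%) and 29 of 91 ribosomal protein genes (31.9%, 23.2 to 42.0%) had at least 1 peak, beside 25.8% of all protein-coding genes. With AVJ16 these were 31 genes (43.7%, 32.7 to 55.2%) and 33 genes (36.3%, 27.1 to 46.5%), beside 23.2% of all genes. The intervals of the classes overlapped in both lists. The ribosomal protein genes' interval included the share of all genes with DMSO, whereas the interval of the EIF and EEF genes lay above it in both lists. The share of all genes is taken over 20046 annotated genes, whether or not H1299 expresses them, so expression is not matched in this comparison. Among core members, without readthrough genes and regulators, 26 ribosomal protein genes were bound with DMSO and 32 with AVJ16. For EIF and EEF genes this was 25 in each list. Without peaks in a protein-coding gene outside both classes, 24 and 31 ribosomal protein genes and 27 and 28 EIF and EEF genes were bound. Of the 78 mitochondrial ribosomal protein genes, which build another ribosome, 20 (25.6%, 17.3 to 36.3%) were bound in each list.

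**Figure D1:**
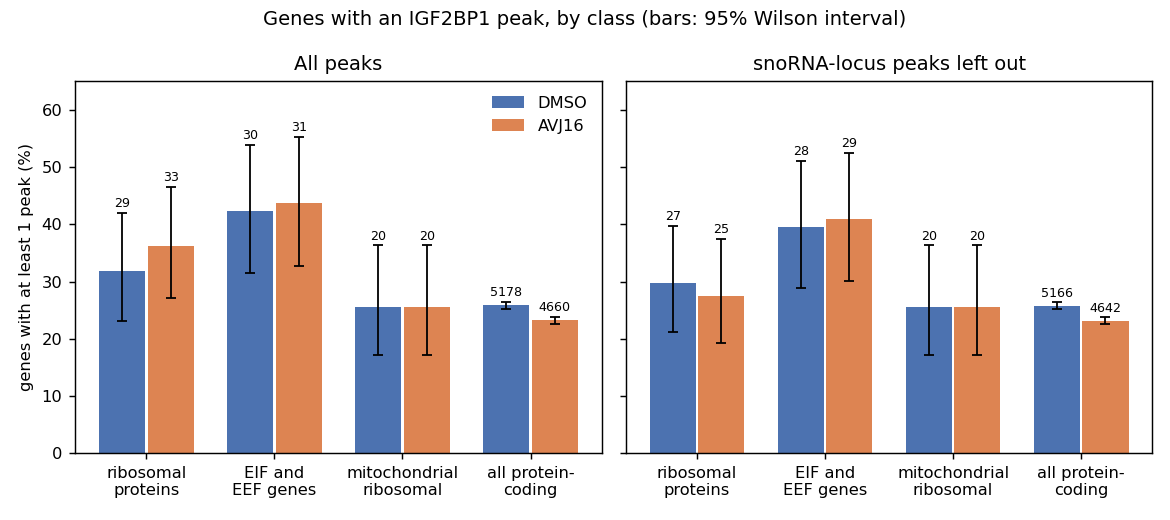
Share of genes with at least 1 peak (y axis, %) in each class and list, with all peaks on the left and without peaks on snoRNA loci on the right. Error bars are 95% Wilson intervals and the number above each bar is the count of genes; without snoRNA peaks the ribosomal protein genes fall to 27 with DMSO and 25 with AVJ16.

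A part of these peaks lay on snoRNAs inside the genes and not on the mRNA. In ribosomal protein genes, 18 of 124 DMSO peaks (14.5%, 9.4 to 21.8%) and 40 of 144 AVJ16 peaks (27.8%, 21.1 to 35.6%) were on an annotated snoRNA locus. In EIF and EEF genes these were 3 of 183 and 7 of 185 peaks. Over all protein-coding genes the shares were 0.205% and 0.368% of peaks. Without them, 27 ribosomal protein genes (29.7%, 21.3 to 39.7%) were bound with DMSO and 25 (27.5%, 19.4 to 37.4%) with AVJ16, so the count was no longer higher with AVJ16. The EIF and EEF genes then counted 28 and 29. The shares of all genes without snoRNA peaks were 25.8% with DMSO and 23.2% with AVJ16. This split was made after the peaks had been seen.

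**Figure D2:**
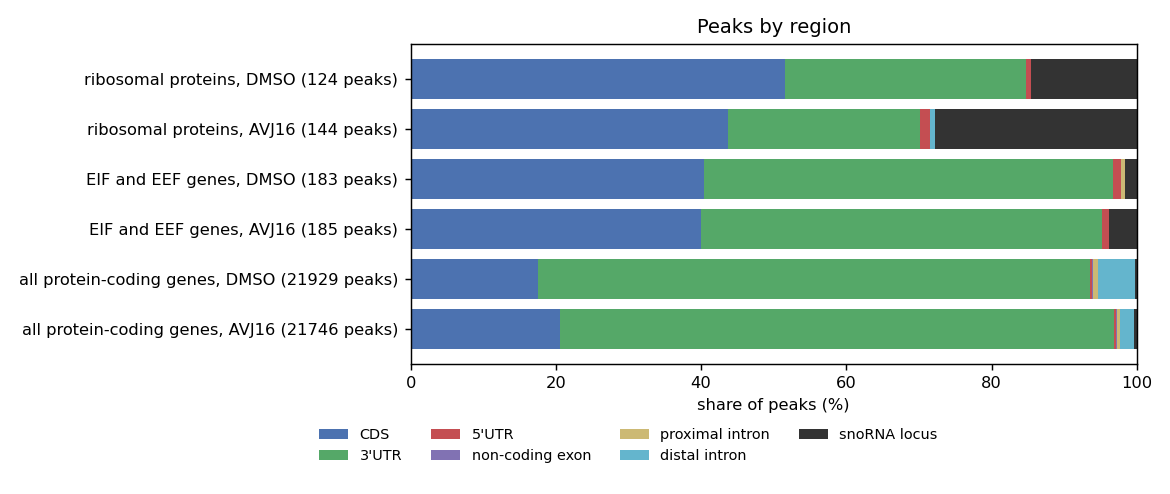
Share of peaks (x axis, %) by region for the ribosomal protein genes, the EIF and EEF genes and all protein-coding genes in each list, with peaks on snoRNA loci drawn apart. Peaks on snoRNA loci are 14.5% and 27.8% of the ribosomal protein genes' peaks. With the CDS placed before the 3’UTR, as drawn, the coding part is larger in both classes than over all genes. With the 3’UTR placed first, the CDS held 12.02% of EIF and EEF peaks with DMSO and 9.73% with AVJ16. The share over all genes in that order is not given here.

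Ribosomal protein genes had a CDS peak and a 3’UTR peak in similar numbers. Outside snoRNA loci, 16 of the 91 genes had a CDS peak with DMSO (17.6%, 11.1 to 26.7%) and 13 had a 3’UTR peak (14.3%, 8.5 to 22.9%). With AVJ16 these were 14 and 12 genes. Of the 71 EIF and EEF genes, 13 had a CDS peak with DMSO (18.3%, 11.02 to 28.8%) and 24 had a 3’UTR peak (33.8%, 23.9 to 45.4%), and with AVJ16 13 and 23. Among all protein-coding genes, 6.90% had a CDS peak and 21.9% a 3’UTR peak with DMSO, and 7.04% and 19.6% with AVJ16. For the CDS, the intervals of both classes thus lay above the share of all genes with DMSO, when CDS is preferred to 3’UTR in calling a region. For the 3’UTR, the interval of the EIF and EEF genes lay above both that share and the interval of the ribosomal protein genes.

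Counted by peak, 64 of the 106 DMSO peaks of ribosomal protein genes outside snoRNA loci were in the CDS (60.4%, 50.9 to 69.2%) and 41 in the 3’UTR (38.7%, 29.96 to 48.2%). In EIF and EEF genes 74 of 180 were in the CDS (41.1%, 34.2 to 48.4%) and 103 in the 3’UTR (57.2%, 49.9 to 64.2%). Over all protein-coding genes the CDS held 17.6% and the 3’UTR 76.1% of peaks. The AVJ16 list gave 60.6% and 36.5% for ribosomal protein genes and 41.6% and 57.3% for EIF and EEF genes. Peaks of a gene are not independent, since touching peaks often tile a single site: joining them left 71 sites from the 124 peaks of ribosomal protein genes and 115 from the 183 of EIF and EEF genes. A few genes also weigh heavily. The 4 genes with the most DMSO peaks held 49 of the 124 in ribosomal protein genes and 78 of the 183 in EIF and EEF genes. Of the peaks of ribosomal protein genes, 23 with DMSO and 17 with AVJ16 also lie in a protein-coding gene outside both classes. The call of a region rests on the isoforms used. A peak was called CDS if any transcript codes there, and with 3’UTR placed first the CDS share of EIF and EEF peaks was 12.02% in place of 40.4% over all their DMSO peaks, and the 3’UTR share 84.7% in place of 56.3%. For ribosomal protein genes this turned the order: over all their DMSO peaks, snoRNA loci included, the CDS held 36.3% in place of 53.2% and the 3’UTR 50% in place of 33.1%. Among their DMSO peaks of at least 4 on the log2 scale the CDS likewise held less than the 3’UTR, 32.4% against 47.1%. On the Ensembl canonical transcript alone the EIF and EEF peaks were 35.5% CDS and 61.2% 3’UTR, and those of ribosomal protein genes 50.8% and 33.1%.

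On canonical transcripts, 16 ribosomal protein genes had a DMSO peak centred before the stop codon and 15 had one past it, 5 of them with both. Among EIF and EEF genes, 12 had a peak before the stop codon, 24 past it and 9 both. Within 100 nt of the stop codon lay 17 of 106 mRNA peaks of ribosomal protein genes (16.04%) and 13 of 176 of EIF and EEF genes (7.39%). The matching shares over all protein-coding genes are not given here. The part that the length of the mRNAs has in these counts was not tested.

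The classes differ in the length of the 3’UTR. Its median is 180 nt in ribosomal protein genes, 808 nt in EIF and EEF genes and 1018 nt over all protein-coding genes. A 3’UTR under 250 nt is annotated for 49 of the 91 ribosomal protein genes and 12 of the 71 EIF and EEF genes. The bound genes of each class had the longer 3’UTRs: medians were 738 nt against 83 nt for ribosomal protein genes with and without a DMSO peak outside snoRNA loci, and 1944 nt against 507 nt for EIF and EEF genes. Coding lengths lay close together, at 429 against 470 nt and 1152 against 1122 nt.

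Within a range of 3’UTR length the shares of the classes lay close together in some ranges and apart in others. Where the 3’UTR was 2000 nt or longer, 6 of 10 ribosomal protein genes and 13 of 20 EIF and EEF genes had a DMSO peak outside snoRNA loci, and 43.1% of all genes of that length. From 1000 to under 2000 nt these were 7 of 12 and 7 of 12, beside 31.8%. From 500 to under 1000 nt they were 2 of 9 and 4 of 14, beside 19.5%, and from 250 to under 500 nt 3 of 11 and 3 of 13, beside 12.7%. From 100 to under 250 nt they were 5 of 10 ribosomal protein genes and 0 of 5 EIF and EEF genes, beside 7.92%. Under 100 nt they were 4 of 39 and 1 of 7, beside 4.50%. Most of these ranges hold 5 to 20 genes of a class. The part that length has in the difference between the classes was not tested.

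Peaks in ribosomal protein genes were short, and more of them were at the limit of the −log10 p. Their median length was 29 nt with DMSO and 26 nt with AVJ16, that of EIF and EEF genes 49 and 47 nt, and that of all peaks in protein-coding genes 67 and 61 nt. The −log10 p was at its limit of 400 for 26.6% and 34.7% of peaks in ribosomal protein genes and for 21.9% and 22.2% in EIF and EEF genes, beside 2.76% and 3.40% over all genes. Enrichment itself was not higher: the median log2 fold enrichment with DMSO was 3.60 in ribosomal protein genes, 3.57 in EIF and EEF genes and 3.63 over all genes.

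The counts by role below stand beside the shares of all protein-coding genes, 25.8% with DMSO and 23.2% with AVJ16. By role, the proteins of the large subunit were bound in 14 of 46 genes with DMSO and 19 with AVJ16, or 13 and 15 without snoRNA peaks. Those of the small subunit were bound in 8 and 9 of 33 genes, or 7 and 6. Of the 8 paralogs 4 were bound in both lists, among them RPL22L1, whose best 3’UTR peak had a log2 fold enrichment of 3.71 with DMSO and 3.22 with AVJ16.

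RPS23, a small-subunit protein of the decoding centre, had the highest value of the ribosomal protein genes over both lists. Its best peak had a log2 fold enrichment of 5.44 with DMSO and 5.99 with AVJ16. All of its peaks, 6 with DMSO and 3 with AVJ16, lay in the annotated 3’UTR of 2789 nt, and the best ones were centred 1211 and 1192 nt past the stop codon. RPL39, a small protein of the exit tunnel, had a best peak of 5.87 and 5.93 in a 3’UTR of 180 nt, where 2 touching peaks covered 91 nt with DMSO and 88 nt with AVJ16. RPL30 followed with 5.05 and 5.51, also in the 3’UTR.

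RPL15 had the most peaks, 19 with DMSO and 14 with AVJ16, which joined to 11 and 6 sites. Of the DMSO peaks 6 were centred before the canonical stop codon and 13 past it. A peak of 97 nt across the stop codon had a log2 fold enrichment of 4.59 with DMSO, and the best peak, 1225 nt past it, had 4.84. With AVJ16 the best peak had 4.35. RPL23A had 3 peaks in each list within its 3’UTR, with a best value of 4.74 with DMSO, centred 185 nt past the stop codon, and 4.62 with AVJ16, centred 101 nt past it, and 5 and 8 more on snoRNAs. RPL4 had its best peaks on a snoRNA, and its CDS peaks had best values of 3.44 and 3.14.

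RPSA, RPLP0, RPS27L and RPS6 differed in where they were bound. RPSA, which encodes a small-subunit protein also known as the laminin receptor, had 7 CDS peaks in each list and best values of 4.49 and 4.46. RPLP0, the stalk protein often used as a reference mRNA, had 2 peaks in each list and best values of 4.21 and 3.59, centred 24 and 4 nt past the canonical stop codon. RPS27L, a paralog of RPS27, had a best 3’UTR peak of 4.31 with DMSO and 3.93 with AVJ16. RPS6, the target of the S6 kinases, had no peak in either list.

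EEF2, the factor that moves the ribosome along the mRNA, had the highest value of all these genes, and with DMSO the most peaks. Outside its snoRNA it had 24 DMSO peaks and 21 AVJ16 peaks, of which 23 and 20 were centred past the canonical stop codon, and 10 in each list count as CDS. Of those 10, 1 in each list is centred before the canonical stop codon, and the others lie where another transcript codes or reach across the stop codon. The peaks outside the snoRNA covered 462 nt in each list, while the 3’UTR has 498 nt. The log2 fold enrichment rose along the 3’UTR to a summit 177 nt past the stop codon, at the same coordinates in both lists, where it was 6.14 with DMSO and 5.30 with AVJ16. Past the summit it went down to 3.27 at 271 nt with DMSO and up again to 4.14 at 389 nt. EEF1A1, the very abundant factor that brings aminoacyl-tRNA to the ribosome, had no peak in either list, and it has 49 named pseudogenes.

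The eIF3 complex, the largest initiation factor, had peaks in 6 of 14 genes with DMSO and 5 with AVJ16. EIF3L had 17 and 23 peaks, of which 15 and 20 were centred before the stop codon, with best values of 5.29 centred at −1517 nt and 5.32 centred at −1504 nt from it. EIF3E had 18 and 20 peaks, all in the CDS, and best values of 5.08 and 5.04. EIF3F had CDS peaks with best values of 4.45 and 4.29. EIF3A had a single 3’UTR peak in each list at different places, with 3.88 at 131 nt past the stop codon with DMSO and 3.02 at 736 nt with AVJ16.

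Of the 5 genes whose symbols start with EIF1, which include start codon factors, 4 were bound in both lists. EIF1 had 8 and 12 peaks and best values of 5.01 at 229 nt and 4.51 at 178 nt past the canonical stop codon. EIF1B had best values of 4.37 and 4.93, and EIF1AD 4.83 and 3.74. None of the 5 genes of eIF2B, the exchange factor of eIF2, was bound in either list.

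The kinases of eIF2α switch off initiation under stress. EIF2AK1, the kinase that answers to haem, had 19 peaks with DMSO and 15 with AVJ16. Of these, 7 with DMSO and 1 with AVJ16 lay in the CDS, and the others in the 3’UTR between 159 and 780 nt past the stop codon, with best values of 4.55 and 5.48. EIF2S1, which encodes eIF2α, and EIF2AK3, the kinase PERK, had no peak.

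The cap-binding arm was bound in part. EIF4B, a helper of the helicase eIF4A, had a DMSO peak of 5.05 centred 970 nt past the stop codon, at which the AVJ16 list had 3.31. Its other DMSO peak, centred 148 nt past the stop codon, had no match with AVJ16. EIF4EBP2, a repressor of the cap-binding protein, had 17 and 18 peaks spread over its 3’UTR of 6871 nt, with best values of 4.82 at 2312 nt past the stop codon with DMSO and 5.02 at 2539 nt with AVJ16. EIF4E3 had 9 and 8 peaks and best values of 4.77 and 4.87 at different places, 1214 and 1519 nt past the stop codon. All of these peaks also lie in another annotated protein-coding gene, ENSG00000285708. EIF5, which triggers GTP hydrolysis on eIF2, had best 3’UTR peaks of 4.54 and 4.56. EIF4E, the cap-binding protein itself, had 2 peaks with AVJ16 only, the best with 3.59, and the scaffold EIF4G1 had 1 CDS peak of 3.06 and 1 snoRNA peak with AVJ16 only. EIF4A1, EIF4EBP1 and EIF5A had no peak in either list.

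**Figure D3:**
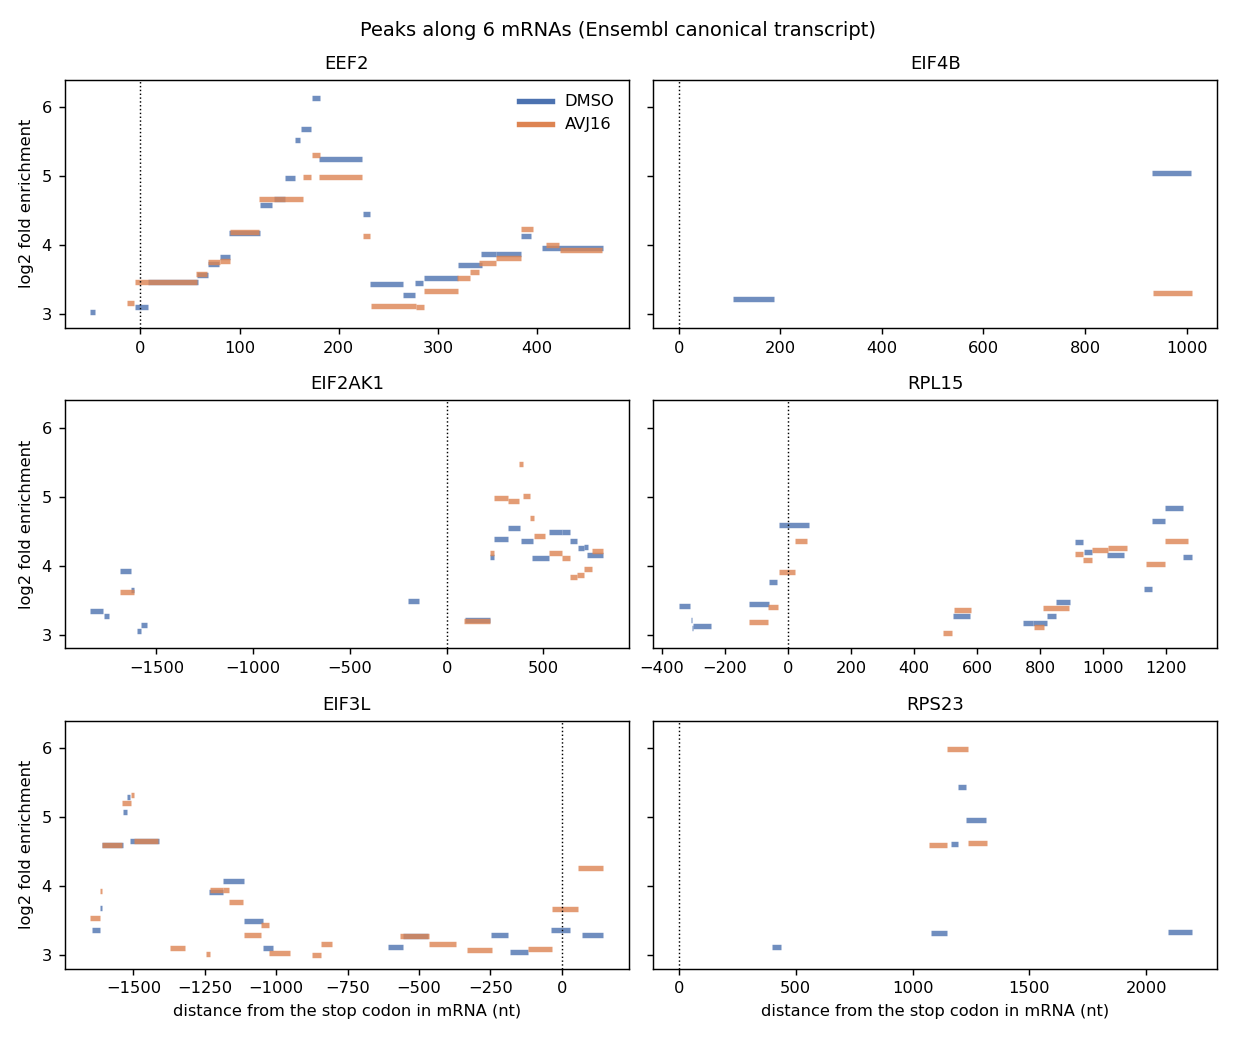
Peaks outside snoRNA loci along 6 mRNAs, with the distance from the canonical stop codon in nt on the x axis and the log2 fold enrichment on the y axis. Each bar is a peak drawn to its length, blue for DMSO and orange for AVJ16. In EEF2 the bars of both lists climb to the same summit 177 nt past the stop codon. In EIF4B the farther of 2 DMSO bars past the stop codon is at 5.05, and the AVJ16 bar there is at 3.31.

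The short sequences searched on the gene's strand, in peaks widened by 25 nt at each end, did not set the classes apart in one direction. CAUU was in 20 of 41 DMSO 3’UTR peaks of ribosomal protein genes (48.8%, 34.3 to 63.5%) and 46 of 103 of EIF and EEF genes (44.7%, 35.4 to 54.3%), beside 59.5% of all 3’UTR peaks, whose windows are longer. UCAUUC was in 9.76% and 9.71%, beside 6.81%. GGAC was in 4 of 41 (9.76%, 3.86 to 22.5%) and 27 of 103 (26.2%, 18.7 to 35.5%), beside 23.1%. UCCAG was in 11 of 41 (26.8%, 15.7 to 41.9%) and 12 of 103 (11.7%, 6.79 to 19.3%), beside 16.1%. With AVJ16, UCCAG was in 13 of 38 and 14 of 102 3’UTR peaks and GGAC in 6 of 38 and 33 of 102. In the CDS the order for UCCAG was the other way, with 8 of 64 DMSO peaks of ribosomal protein genes (12.5%, 6.47 to 22.8%) and 20 of 74 of EIF and EEF genes (27.0%, 18.2 to 38.1%), beside 23.4% of all CDS peaks, while with AVJ16 these were 12 of 63 and 15 of 74. UCAUUC was in 0 of 64 DMSO CDS peaks of ribosomal protein genes, with an interval up to 5.66%, and 3 of 74 of EIF and EEF genes. Neighbouring peaks share windows, so these counts are not independent.

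The snoRNAs with peaks were all of the box C/D kind. Box C/D snoRNAs carry a C box near the 5′ end and a D box near the 3′ end, whose usual letters are UGAUGA and CUGA, while box H/ACA snoRNAs have another fold. CUGA was in the last 20 bases of all 19 box C/D loci with a peak in either list and of 26 of the 27 without, and UGAUGA in 9 and 21 of them. Ribosomal protein genes hold 40 box C/D and 18 box H/ACA loci, and EIF and EEF genes hold 6 and 9. Of the 46 box C/D loci, 10 had a peak with DMSO and 19 with AVJ16, and none of the 27 box H/ACA loci had a peak in either list. Over all 972 annotated snoRNA loci, 25 (2.57%) had a peak with DMSO and 40 (4.12%) with AVJ16. Those loci are of all kinds, and the shares over all box C/D or all box H/ACA loci are not given here. The ends of the loci with the highest peaks in ribosomal protein genes, SNORD101 in RPS12 and SNORD18B in RPL4, are shown with UGAUGA and CUGA in capitals. SNORD101 lies at chr6:132815307-132815379 on the plus strand and SNORD18B at chr15:66502019-66502091 on the minus strand of GRCh38.
SNORD101, 5′ end: guuugaaUGAUGAcuuuaauugucggauac
SNORD101, 3′ end: uuaugagugaaacauaagaguCUGAcaaac
SNORD18B, 5′ end: ucaaaaUGAUGAgauuccacuuaauugguc
SNORD18B, 3′ end: cacaugauauuuguggaaauuCUGAcuugg

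SNORD101 had a best log2 fold enrichment of 4.26 with DMSO and 4.74 with AVJ16. Its peaks covered bases 22 to 65 of 73 with DMSO and reached from base 4 to base 70 with AVJ16. SNORD18B had 4.46 and 4.45, and SNORD72 in RPL37 had 4.20 and 3.89. Among the 10 loci with peaks in both lists the best peak was higher with AVJ16 in 7, and the median difference was 0.35 on the log2 scale (range −0.30 to 0.72). The largest rise was at SNORD42B in RPL23A, from 3.41 to 4.13. The 9 loci with a peak in 1 list only were all in the AVJ16 list and had best values from 3.02 to 3.47. Over all snoRNA loci 24 had peaks in both lists, 1 with DMSO only and 16 with AVJ16 only. A difference between the 2 lists has no replicate check.

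**Figure D4:**
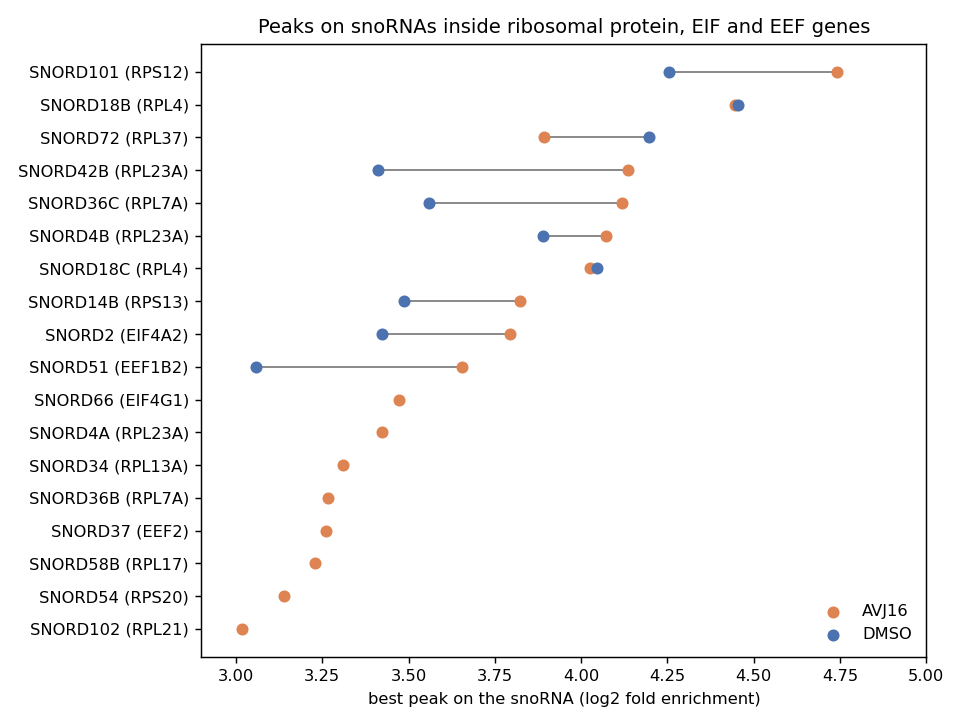
Best log2 fold enrichment (x axis) on 18 of the snoRNA loci with a peak, named with the host gene in brackets, blue for DMSO and orange for AVJ16. Lines join loci listed in both, and the 8 loci with an orange point alone lie at or below 3.47.

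RPS12 and RPL7A were bound through snoRNA peaks alone in both lists, as were EEF1B2, through SNORD51, and EIF4A2, through SNORD2. With AVJ16 this also held for RPL13A, RPL17 and its readthrough gene, RPL21 and RPS20, among others. EEF2 and EIF4G1 had an AVJ16 peak on SNORD37 and SNORD66 beside their mRNA peaks.

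Most genes bound with DMSO were bound with AVJ16 as well. Of the 29 ribosomal protein genes 24 (82.8%, 65.5 to 92.4%) and of the 30 EIF and EEF genes 27 (90.0%, 74.4 to 96.5%) were in both lists, beside 79.1% of all bound genes. Bound with DMSO only were 5 ribosomal protein genes and 3 EIF and EEF genes, beside 20.9% of all genes bound with DMSO. Bound with AVJ16 only were 9 and 4 genes, beside 12.1% of all genes bound with AVJ16. Of these 9 ribosomal protein genes, 4 had a peak outside snoRNA loci, and the others, such as RPL13A and RPL21, had snoRNA peaks alone. Without snoRNA peaks 21 of 27 ribosomal protein genes and 25 of 28 EIF and EEF genes were in both lists, beside 79.0% of all genes, and 6 ribosomal protein genes were bound with DMSO only. No gene listed once had a best peak above 3.69, close to the threshold of 3, which was the value of RPL36A.

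At shared sites the enrichments of the lists lay close together. Of 124 DMSO peaks in ribosomal protein genes 102 overlapped an AVJ16 peak, and the median difference AVJ16 minus DMSO was 0.06 on the log2 scale. It was −0.06 over the 85 shared peaks outside snoRNA loci. Of 183 peaks in EIF and EEF genes 138 were shared, with a median of −0.06. Over all 14759 shared peaks the median was −0.06. In ribosomal protein genes 10 shared peaks (9.80%) were lower with AVJ16 by more than 0.5 and 10 were higher. In EIF and EEF genes 21 (15.2%, 10.2 to 22.1%) were lower and 10 (7.25%, 4.0 to 12.8%) higher. Over all shared peaks 20.1% were lower and 12.6% higher. Within 0.5 were 80.4% in ribosomal protein genes, 77.5% in EIF and EEF genes and 67.3% over all shared peaks. By region, the CDS peaks differed least, with 92.0% and 92.9% within 0.5 beside 73.4% of all CDS peaks, and the 3’UTR peaks had 67.6% and 66.7%, beside 65.8%.

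In EIF and EEF genes, 19 of the 21 lower peaks were in the 3’UTR, where 78 peaks were shared (24.4%), beside 21.2% of all shared 3’UTR peaks. The largest falls were those of EIF4B, whose shared peak fell by 1.74 on the log2 scale, EIF4E3, which had a peak of 4.77 with DMSO and 3.52 with AVJ16, and EIF1AD, from 4.83 to 3.74. The largest rises were at RPS23, where a DMSO peak of 4.61 overlapped the AVJ16 peak of 5.99, at EIF4EBP2, from 3.36 to 4.65, and at EIF1B, from 3.70 to 4.93. A neighbouring DMSO peak of RPS23 with 5.44 overlaps that AVJ16 peak too, so its rise depends on which is set against it. EIF4EBP2 also had a shared peak at 3.99 with DMSO and 3.05 with AVJ16.

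**Figure D5:**
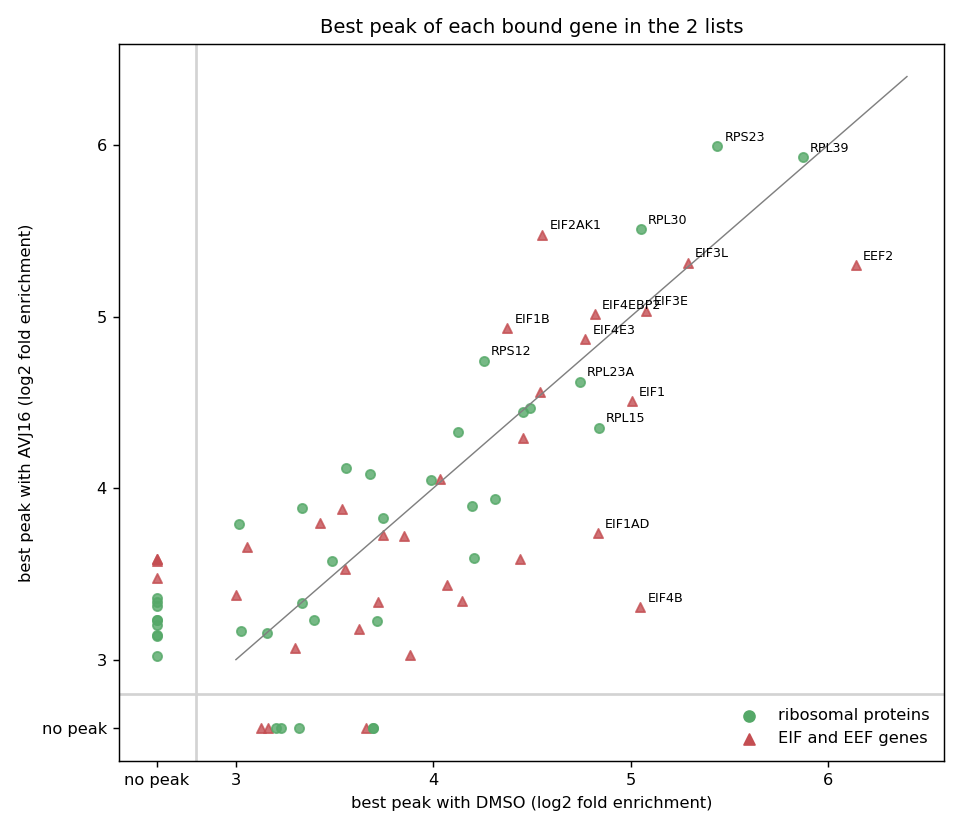
Best log2 fold enrichment of each bound gene with DMSO (x axis) and AVJ16 (y axis), circles for ribosomal protein genes and triangles for EIF and EEF genes, with genes absent from a list on the margin marked no peak. Genes lie on both sides of the grey line of equal values, and no gene on a margin is above 3.69.

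Ribosomal protein genes have many processed pseudogenes, copies of the mRNA set back into the genome. Annotated pseudogenes named after these genes number 1600 for ribosomal protein genes and 155 for EIF and EEF genes. The lists hold 52 DMSO and 64 AVJ16 peaks on 36 of them, 27 of which were in both lists. The share over all annotated pseudogenes is not given here, so these counts have no background beside them. Their 25 parent genes are 21 ribosomal protein genes and 4 EIF and EEF genes. Of the pseudogene peaks of 20 nt or longer, 25 of 48 with DMSO and 30 of 56 with AVJ16 were identical to the parent mRNA over their whole length. The lowest identity among them was 48.2% with DMSO and 71.9% with AVJ16. Where copies are identical, the peak cannot be given to pseudogene or parent from the lists. The most enriched was on RPL39P3, with 5.84 with DMSO and 6.13 with AVJ16, and the centre of its AVJ16 peak at chr6:73373134-73373163, minus strand, is shown beside the best matching stretch of the RPL39 mRNA in GENCODE, with any difference to be in capitals. There is none.
RPL39P3: aaaucagguacaacuccaaaaggagacauu
RPL39 mRNA: aaaucagguacaacuccaaaaggagacauu

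RPL39 itself had peaks in the 3’UTR alone. RPL41P2 had a peak of 4.60 with DMSO and 5.66 with AVJ16, identical to RPL41 at 94 of 95 bases, while RPL41 had none. RPL31P2 likewise had peaks, the best with 4.01 and 3.82, while RPL31 had none. In all, 10 parents of bound pseudogenes had no peak outside snoRNA loci in either list, among them RPL7, RPL12, RPS3, RPS18 and EIF4A2. RPS18 counts here only through RPS18P9, whose DMSO peak matched the RPS18 mRNA at 27 of 56 bases (48.2%), so that stretch is not a close copy. In the other direction, 7 of 74 DMSO peaks of 20 nt or longer in ribosomal protein genes had an exact copy in a pseudogene named after the gene, and 1 of 141 in EIF and EEF genes. These pseudogenes and counts were chosen after the peaks had been seen.

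Other genes of translation were counted in lists chosen with earlier results known. With DMSO 9 of 20 cytosolic aminoacyl-tRNA synthetases, 6 of 15 termination and rescue factors, 11 of 24 regulators that act at the cap or the poly(A) tail, 8 of 15 genes of an mTOR and S6 kinase list and 12 of 28 ribosome biogenesis factors had a peak. With AVJ16 these were 8, 7, 10, 7 and 9. The mTOR and S6 kinase list also takes in RPS6KA and MKNK genes, which made up most of its bound genes. Its others with a DMSO peak were RPTOR, AKT1S1 and RPS6KB1, while MTOR had a peak with AVJ16 only. The share of all protein-coding genes was 25.8% with DMSO and 23.2% with AVJ16.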

How the data were processed

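Per the Methods, the authors trimmed adapters, discarded reads of repetitive elements, mapped the others with STAR, removed PCR duplicates, called clusters with CLIPper and normalized them to the paired SMInput. The −log10 p and the log2 fold enrichment of each peak are the deposited values, and the 2 lists were made separately. Coordinates are on hg38 per the labels, although the Methods name an older Gencode release. How the replicates were combined is not given in the sources used here.

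Peaks were placed in genes of GENCODE release 44 on the same strand, by 1 nt or more. Where transcripts differed, CDS was preferred to 3’UTR, 3’UTR to 5’UTR, and exons to introns. Differences between lists were taken from a DMSO peak to the AVJ16 peak sharing most bases with it, and those beyond 0.5 were counted. Overlapping snoRNA genes were joined to a locus. With 1 list per treatment no test was run. Alternatives were stricter enrichment, p-value, overlap and number of peaks, other region orders, joined peaks, core members, other limits and centring.

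Members and lists were chosen with earlier results of these data known. Named by rule are the 10 ribosomal protein genes and 12 EIF and EEF genes with the highest best peak, the 3 EIF or EEF genes with the most peaks, the 3 largest rises and falls by gene, and a set of well-known members whatever their values. Genes bound in 1 list, snoRNAs and pseudogenes stand outside the rule and were picked with their values in view, as were the alternatives that leave out snoRNA peaks and peaks shared with another gene. Of the members, 3 were counted but not named. Some genes that the rule or the lists take in are not reported here by name. Scripts ran on Python 3.11.15, numpy 2.4.6, scipy 1.17.1 and matplotlib 3.10.9 and were checked on simulated lists.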

Additional observations from a re-analysis of the deposited data

How the results depend on the processing

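No paired analysis was possible because the deposited lists combine both replicates of a treatment, and leaving out a replicate was not possible for the same reason. Of 150 recomputed values, 100 changed little, 47 moved by more than 1.5 times or beyond their interval, and 3 medians near 0 changed sign. When peaks had to reach 4 on the log2 scale, 12 ribosomal protein genes were bound in each list, and 16 EIF and EEF genes with DMSO and 11 with AVJ16. Of these, 9 and 11 were in both lists, 3 and 5 with DMSO only, and 3 and 0 with AVJ16 only. Genes bound with DMSO only whose best peak reached 4 numbered 0 in both classes. Ribosomal protein genes bound with DMSO only numbered 2 at a −log10 p of at least 5, 3 among core members and 3 without peaks in another protein-coding gene. Bound with AVJ16 only were 2 core EIF and EEF genes, and 4 ribosomal protein genes without snoRNA peaks. With the 3’UTR placed before the CDS, the CDS held 36.3% of ribosomal protein gene peaks with DMSO and 32.6% with AVJ16 and the 3’UTR 50% and 39.6%, and for EIF and EEF genes the CDS held 12.02% and 9.73% and the 3’UTR 84.7% and 85.4%. At an enrichment of at least 4, the CDS held 32.4% and 23.7% and the 3’UTR 47.1% and 42.1% for ribosomal protein genes, and for EIF and EEF genes the CDS held 33.3% with DMSO and the 3’UTR 66.7% and 65.3%. Without snoRNA peaks the AVJ16 shares of ribosomal protein genes were 60.6% CDS and 36.5% 3’UTR. The median difference of ribosomal protein genes was 0.12 when centred on all shared peaks and −0.055 without snoRNA peaks. That of EIF and EEF genes was 0.0014 when centred and 0.0062 among peaks of at least 4 in both lists. With a limit of 0.25, 25 peaks of ribosomal protein genes were lower and 25 higher, and 46 and 26 of EIF and EEF genes. With a limit of 1 these were 0 and 2, and 4 and 2. Among peaks of at least 4 in both lists they were 2 and 2, and 5 and 2. The causes were not tested. The alternatives without snoRNA peaks or peaks in another gene were added after the data had been seen. Sites under the threshold are not listed, so no level can be given for them.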
